A study of Homo sapiens with 12 samples.

Results

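Methyl groups on lysine 9 of histone H3 are removed by a small set of enzymes, and the starts of 8 genes that encode such enzymes or their close relatives were examined here for the acetyl and dimethyl marks of that same residue. The genes were KDM1A, KDM3A, KDM3B, JMJD1C, KDM4A, KDM4B, KDM4C and PHF2. Each was represented by a window of 5 kb either side of a given hg19 start position, so that membership rested on gene identity and not on any measured value. The genes were, however, chosen with earlier results of these data known. The 8 windows stood beside 130046 bins of 10 kb that held an H3K9ac peak in at least 1 library.

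The cells were MDA-MB-231, a human triple negative breast adenocarcinoma line, serum starved overnight in every group. The treated group then received DETA/NO, a slow-release nitric oxide donor, at 500 µM for 24 h, and the control group was not treated. H3K9ac, found at active promoters and enhancers, and H3K9me2, found over silent chromatin, were mapped by chromatin immunoprecipitation and sequencing, with 2 biological replicates per condition and mark. Transcripts of the 8 genes were not analysed here, and the line's identity was not checked against marker genes, since no other gene positions on hg19 were used.

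These enzymes fall into 2 chemical classes. KDM1A, also called LSD1, is a flavin-dependent amine oxidase that acts on mono- and dimethylated lysine. The Jumonji enzymes are dioxygenases that need ferrous iron, oxygen and 2-oxoglutarate. Nitric oxide can bind the catalytic iron of such enzymes, which is how the series' question, the control of histone marks by nitric oxide, touches this family. In the KDM3 branch, KDM3A and KDM3B remove H3K9me1 and H3K9me2, and JMJD1C is their relative. KDM4A, KDM4B and KDM4C act on trimethylated and dimethylated lysine 9. PHF2 belongs to a further branch that carries a PHD finger, which reads methylated histone H3. KDM3A, KDM4B and KDM4C are known targets of hypoxia-inducible factor 1.

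Promoter sequence is shown for the genes at the extremes of the H3K9ac comparison, PHF2 and KDM3B with the smallest and KDM4C with a large difference between conditions. The 250 bases before each start come from RefSeq on GRCh38.p14, on the plus strand, at chr9:93576334-93576583 for PHF2, chr5:138352435-138352684 for KDM3B and chr9:6757723-6757972 for KDM4C. These starts were not matched to the hg19 positions that define the windows. Capitals mark matches on either strand to 4 motifs: ACGTG, the core bound by hypoxia-inducible factors; CCAAT; the GC box GGGCGG; and the ETS motif CCGGAAG. For JMJD1C the table holds 3 starts and none is shown.
PHF2: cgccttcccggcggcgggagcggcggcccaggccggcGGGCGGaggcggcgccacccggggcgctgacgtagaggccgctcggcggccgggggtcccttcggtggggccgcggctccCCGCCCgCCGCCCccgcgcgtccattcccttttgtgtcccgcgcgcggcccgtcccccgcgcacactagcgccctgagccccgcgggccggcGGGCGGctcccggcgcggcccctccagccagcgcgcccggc
KDM3B: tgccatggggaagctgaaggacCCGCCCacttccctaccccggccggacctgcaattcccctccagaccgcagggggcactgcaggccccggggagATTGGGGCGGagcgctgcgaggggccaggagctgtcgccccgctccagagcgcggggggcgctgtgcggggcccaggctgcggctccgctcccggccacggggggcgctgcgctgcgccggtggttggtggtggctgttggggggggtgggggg
KDM4C: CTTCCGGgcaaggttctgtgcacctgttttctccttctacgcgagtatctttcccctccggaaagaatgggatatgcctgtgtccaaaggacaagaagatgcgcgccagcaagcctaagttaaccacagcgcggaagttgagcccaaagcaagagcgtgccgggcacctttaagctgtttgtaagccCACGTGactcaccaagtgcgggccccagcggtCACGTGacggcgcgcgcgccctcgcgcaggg

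The printed promoters differed in composition. The PHF2 stretch was 84.8% G and C with 46 CpG dinucleotides and 4 GC boxes, and the KDM3B stretch was 76.4% G and C with 22 CpG, 2 GC boxes and 1 CCAAT. The KDM4C stretch was the least rich, at 59.2% with 21 CpG. Among these 3 it alone held ACGTG, counted 4 times because the palindrome CACGTG reads as ACGTG on both strands; it also held 1 ETS match and no GC box. Among 35116 RefSeq promoters of the same length, 18.5% held ACGTG, 42.6% GGGCGG, 32.0% CCAAT and 8.52% CCGGAAG, and the median was 58% G and C with 11 CpG. Of the other members, KDM4B had 2 matches to ACGTG, 4 to CCAAT and 4 to the GC box. KDM1A had 1 ACGTG, and KDM4A and both listed starts of KDM3A had no ACGTG. The 3 listed starts of JMJD1C had 0, 2 and 0 matches to ACGTG and 0, 1 and 1 to the GC box. A match describes these letters and is not a bound site.

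The lists behind these values hold intervals and scores, not reads, so depth is unknown. The H3K9ac lists held 120630 and 59724 peaks untreated and 79538 and 69151 treated, replicates 1 and 2 in that order, and the median score per peak was 1.72 and 1.48 against 3.22 and 2.65. The reproducible sets that the authors made from both libraries of a condition held 14377 and 21098 regions. Any difference between conditions at the gene starts therefore comes with differing list lengths and scores. The comparison was repeated with lists cut to equal lengths, as given in the last section. The part of list length and scores in the difference was not otherwise tested.

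Regions of the treated reproducible H3K9ac set lay over the starts of all 8 genes, and those of the untreated set over 7, with KDM4C the exception. Of all 10 kb bins that held a peak, 15.6% held a region of the treated set and 10% of the untreated set. The acetylated stretch was wider after nitric oxide at most of them. Covered length, the number of window bases under a peak, averaged 1940 and 1695 bp over the 8 genes in untreated replicates 1 and 2, and 3227.5 and 2686 bp in their treated counterparts. The treated mean was 1139 bp above the untreated. At 7 of 8 genes each treated value was higher than each untreated one, with PHF2 as the exception, and at 0 of 8 was each lower. Over all 10 kb bins that held a peak, 15.6% were higher in that sense and 6.62% lower. Over 11379 windows of 10 kb centred on regions held by both reproducible sets, called windows on shared regions from here on, 86.1% were higher and 0.536% lower. Those windows were picked by calls in these same libraries. The count at the demethylase genes lay near the share of windows on shared regions.

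The size of the difference gave the same picture. The median difference over the 8 windows was 1005 bp, beside 1157.5 bp over the windows on shared regions and -107 bp over all bins with a peak. The treated mean was higher at 8 of 8 genes, as it was in 98.6% of the windows on shared regions and in 35% of all bins with a peak. The arcsine-transformed share of the window under a peak was also higher in treated cells at 8 of 8 genes. After quantile normalization of that share over all bins, it was lower at 5 of them (KDM1A, KDM3A, KDM3B, KDM4B and PHF2). The median ratio of treated to untreated covered length was 1.54 at the 8 genes and 1.74 over the windows on shared regions.

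**Figure D1:**
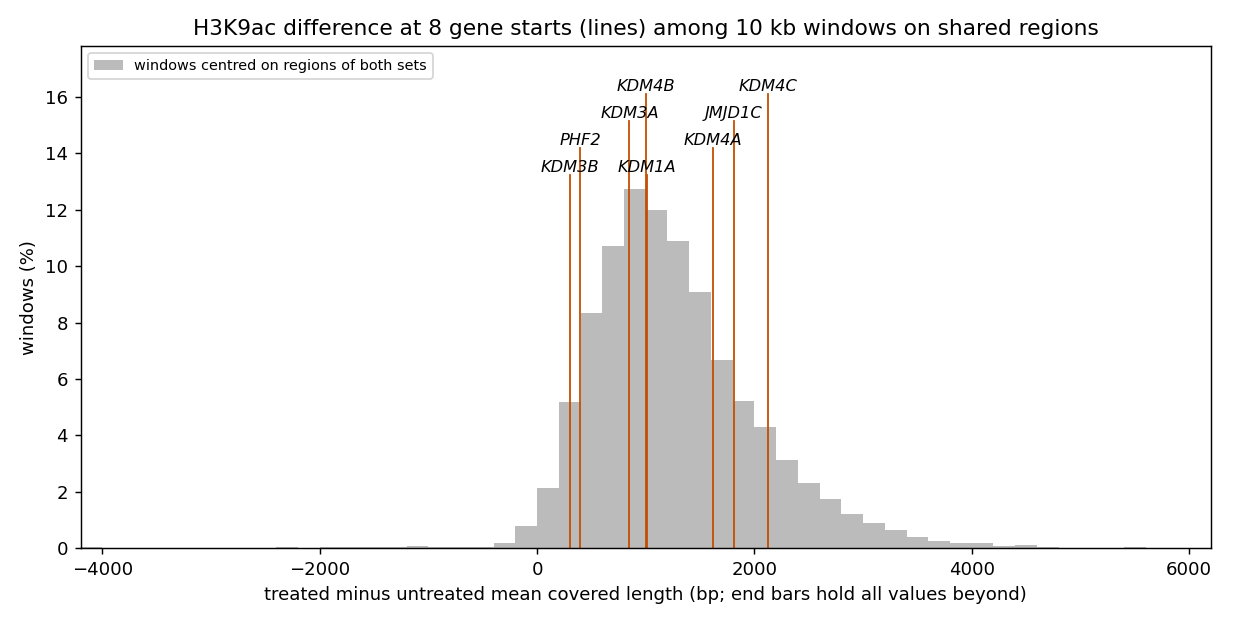
Treated minus untreated mean H3K9ac covered length (x axis, bp) at each gene start (lines), over the distribution for 11379 windows of 10 kb centred on regions of both reproducible sets (grey bars, percent of windows, y axis). KDM3B and PHF2 sit at the low end, at 305.5 and 397.5 bp, and JMJD1C and KDM4C in the upper part, at 1811 and 2127 bp.

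When limma, which borrows the spread of all windows for each, was fitted to covered shares over 130054 windows, 0 of the 8 gene starts passed an adjusted p of 0.05, and 3 (KDM4A, KDM4C and JMJD1C) had an unadjusted p under 0.05. Of all windows in the fit, 0.567% were called higher and 0.00538% lower, and 8.05% were higher at an unadjusted p under 0.05. Fitted among the windows on shared regions instead, limma called KDM4A, KDM4C and JMJD1C higher (adjusted p = 0.036, 0.0011 and 0.039). Of all windows in that fit 33.6% were called higher and 0.325% lower, and 52.3% were higher at an unadjusted p under 0.05. With 2 libraries against 2, an exact two-sided permutation test of a single gene cannot go below 0.333. Whether KDM4A, KDM4C and JMJD1C passed the threshold thus differed with the windows fitted. Other settings on the same 130054 windows changed these calls too: KDM4C, for example, passed with untransformed shares (adjusted p = 0.033, over a range of 5.7e-08 to 0.45 in all alternatives).

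**Figure D2:**
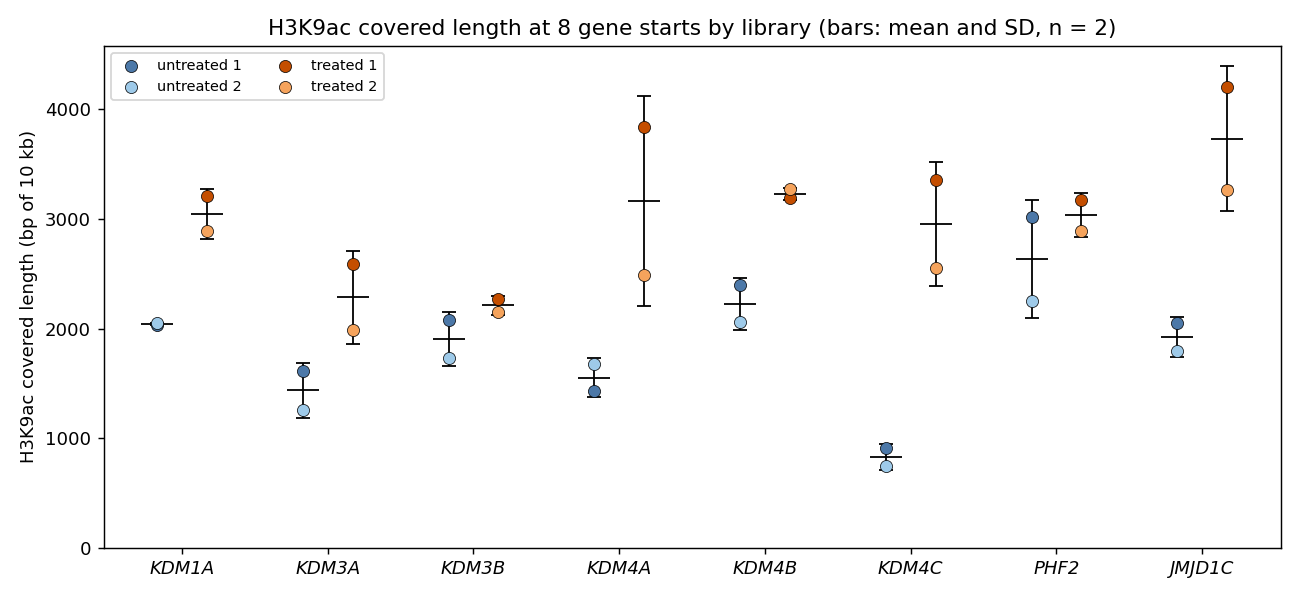
H3K9ac covered length within 5 kb of each gene start (y axis, bp) in the 4 libraries (points), with the mean and SD of each condition (n = 2). Treated points lie above untreated ones at every gene except PHF2, where untreated replicate 1, at 3016 bp, lies between the treated values of 2891 and 3175 bp.

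KDM1A, the flavin-dependent enzyme, starts on chromosome 1 at 23345941. H3K9ac covered 2031 and 2047 bp of its window untreated and 3206 and 2887 bp treated. The untreated values were nearly equal, and both treated libraries were well above them, at a mean of 3046.5 bp ± 226 against 2039 bp ± 11.3 (SD, n = 2). The limma adjusted p was 0.549. In each untreated library 4 separate peaks made up the coverage, in the treated ones 1 and 3. KDM1A was thus, with KDM3B, a gene with fewer peaks in both treated libraries than in either untreated one, a pattern found in 9.08% of the windows on shared regions and 6.57% of all bins with a peak. The reproducible region grew from 23345876 to 23347759 untreated to 23345200 to 23348405 treated, reaching from 741 bp before the start to 2464 bp into the gene.

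KDM3A, the H3K9me2 demethylase best known from hypoxia and from spermatogenesis, starts on chromosome 2 at 86668271. Covered length was 1609 and 1260 bp untreated and 2585 and 1983 bp treated. Both treated libraries were higher, but the treated pair lay well apart. The means were 1434.5 bp ± 247 and 2284 bp ± 426 (SD, n = 2; limma, adjusted p = 0.549). The untreated set held 2 regions here, a short 1 of 283 bp that ended 30 bp past the start and a main 1 of 1353 bp that began 183 bp past it. In treated cells a single region of 2396 bp, at 86667537 to 86669932, took in both. Of the 8 genes, KDM3A held the highest-scoring peak in all 4 libraries: 774 of 120630 and 1548 of 59724 untreated peaks, and 691 of 79538 and 358 of 69151 treated peaks, scored higher.

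KDM3B, the close paralogue of KDM3A, starts on chromosome 5 at 137688285. Its window had the smallest difference of all 8. Covered length was 2081 and 1729 bp untreated and 2271 and 2150 bp treated, so the groups did not overlap, but the gap between them was narrow. The mean difference was 305.5 bp (limma, adjusted p = 0.640), and 94.3% of the windows on shared regions had at least as large a difference. In the reproducible sets the window held 2348 bp untreated and 2338 bp treated, the only gene with fewer bases in the treated set. More bases in the treated set were held at the other 7 of 8 genes and in 97.6% of the windows on shared regions. The window held 2 untreated regions and a single treated 1, at 137688241 to 137690578. That pattern was seen at KDM3A, KDM3B and JMJD1C, and in 12.7% of the windows on shared regions. RefSeq on GRCh38.p14 places part of FAM53C within 5 kb of the KDM3B start, and acetylation in the window cannot be assigned to either gene.

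JMJD1C, the third KDM3 relative, starts on chromosome 10 at 65225722 and is read toward lower coordinates. Covered length was 2054 and 1792 bp untreated and 4201 and 3267 bp treated. Both treated libraries were higher, and 4201 bp was the widest coverage of any gene and library. The means were 1923 bp ± 185 and 3734 bp ± 660 (SD, n = 2), a ratio of 1.94 (limma, adjusted p = 0.250). In treated replicate 1 a single peak of 4201 bp ran from 1842 bp before the start to 2358 bp into the gene. In the untreated set the reach was from 1426 bp before to 1064 bp after, in 2 regions. RefSeq on GRCh38.p14 lists 3 starts for JMJD1C, with REEP3 or JMJD1C-AS1 within 5 kb of some of them, and which of the 3 this window holds was not settled.

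KDM4A, the founding member of the KDM4 branch, starts on chromosome 1 at 44115797. Covered length was 1426 and 1676 bp untreated and 3843 and 2489 bp treated. Both treated libraries were higher, yet they were further apart than any other treated pair, with treated replicate 1 the higher. The means were 1551 bp ± 177 and 3166 bp ± 957 (SD, n = 2; limma, adjusted p = 0.294). In treated replicate 1 the main peak was 3597 bp wide and reached 1147 bp before the start. Treated replicate 2 had a gap just before the start, between a peak ending at -260 bp and a peak beginning at -115 bp.

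KDM4B starts on chromosome 19 at 4969123. Covered length was 2394 and 2057 bp untreated and 3187 and 3269 bp treated. Here the treated pair was the closest of all 8, and both values were clear of the untreated ones. The means were 2225.5 bp ± 238 and 3228 bp ± 58.0 (SD, n = 2; limma, adjusted p = 0.549). Treated means were 746.5 bp higher past the start and 255.5 bp higher before it. The reproducible region began 92 bp before the start untreated and 68 bp before it treated, and its far end moved from 1961 to 2867 bp past the start. Untreated replicate 2 had 5 peaks in the window, the most of any gene and library. The first, at -841 to -554 bp from the start, lay outside the regions of both sets. The last, at 1965 to 2261 bp, lay past the end of the untreated region. Treated replicates 1 and 2 also had a separate peak near that first one, at -821 to -478 and -898 to -566 bp.

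KDM4C, also called GASC1 and known from amplification in squamous carcinoma, starts on chromosome 9 at 6757641 and stood at the low end in untreated cells. Covered length was 909 and 741 bp untreated, the lowest of the 8 genes in both libraries. It was 3352 and 2552 bp treated, in the range of the other genes. The means were 825 bp ± 119 and 2952 bp ± 566 (SD, n = 2), a ratio of 3.58, and the arcsine difference was 0.28 ± 0.067 (SE; limma, adjusted p = 0.054). In 6 of 13 alternative fits the adjusted p of KDM4C was under 0.05.

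No untreated reproducible region met the KDM4C window, and the treated set had 2 there, at 6756713 to 6757934 and 6758047 to 6759947. A region in the treated set with none in the untreated set was found in 38.4% of the 10 kb bins that held a region of either set. The untreated state was not empty: each untreated library had 3 peaks in the window. Those with the highest score, 8.42 and 2.27, lay 472 to 834 and 566 to 842 bp past the start, and the second was outscored by 19860 of the 59724 peaks in its list. Peaks in both untreated libraries were found in 38.0% of the 8098 bins with a treated region alone. Such bins lie at fixed positions and an edge can cut an acetylated stretch, while the KDM4C window is centred on its start. The effect of this on the differences was not tested. In those bins the median difference was 628 bp, and 2.80% had a difference at least as large as the 2127 bp of KDM4C. Among the windows on shared regions the figure was 12.8%.

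PHF2 starts on chromosome 9 at 96338909 and was the most broadly acetylated of the 8 in both untreated libraries. Covered length was 3016 and 2255 bp untreated and 3175 and 2891 bp treated, and the groups overlapped. The means were 2635.5 bp ± 538 and 3033 bp ± 201 (SD, n = 2; limma, adjusted p = 0.600). The sides of the start differed. Bases covered before the start were 993 and 1002 untreated and 1670 and 1454 treated, and inside the gene 2022 and 1253 untreated and 1504 and 1436 treated, so that the groups were apart before the start and overlapped past it. The reproducible region accordingly went from 96337824 to 96340693 untreated to 96337239 to 96340413 treated.

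**Figure D3:**
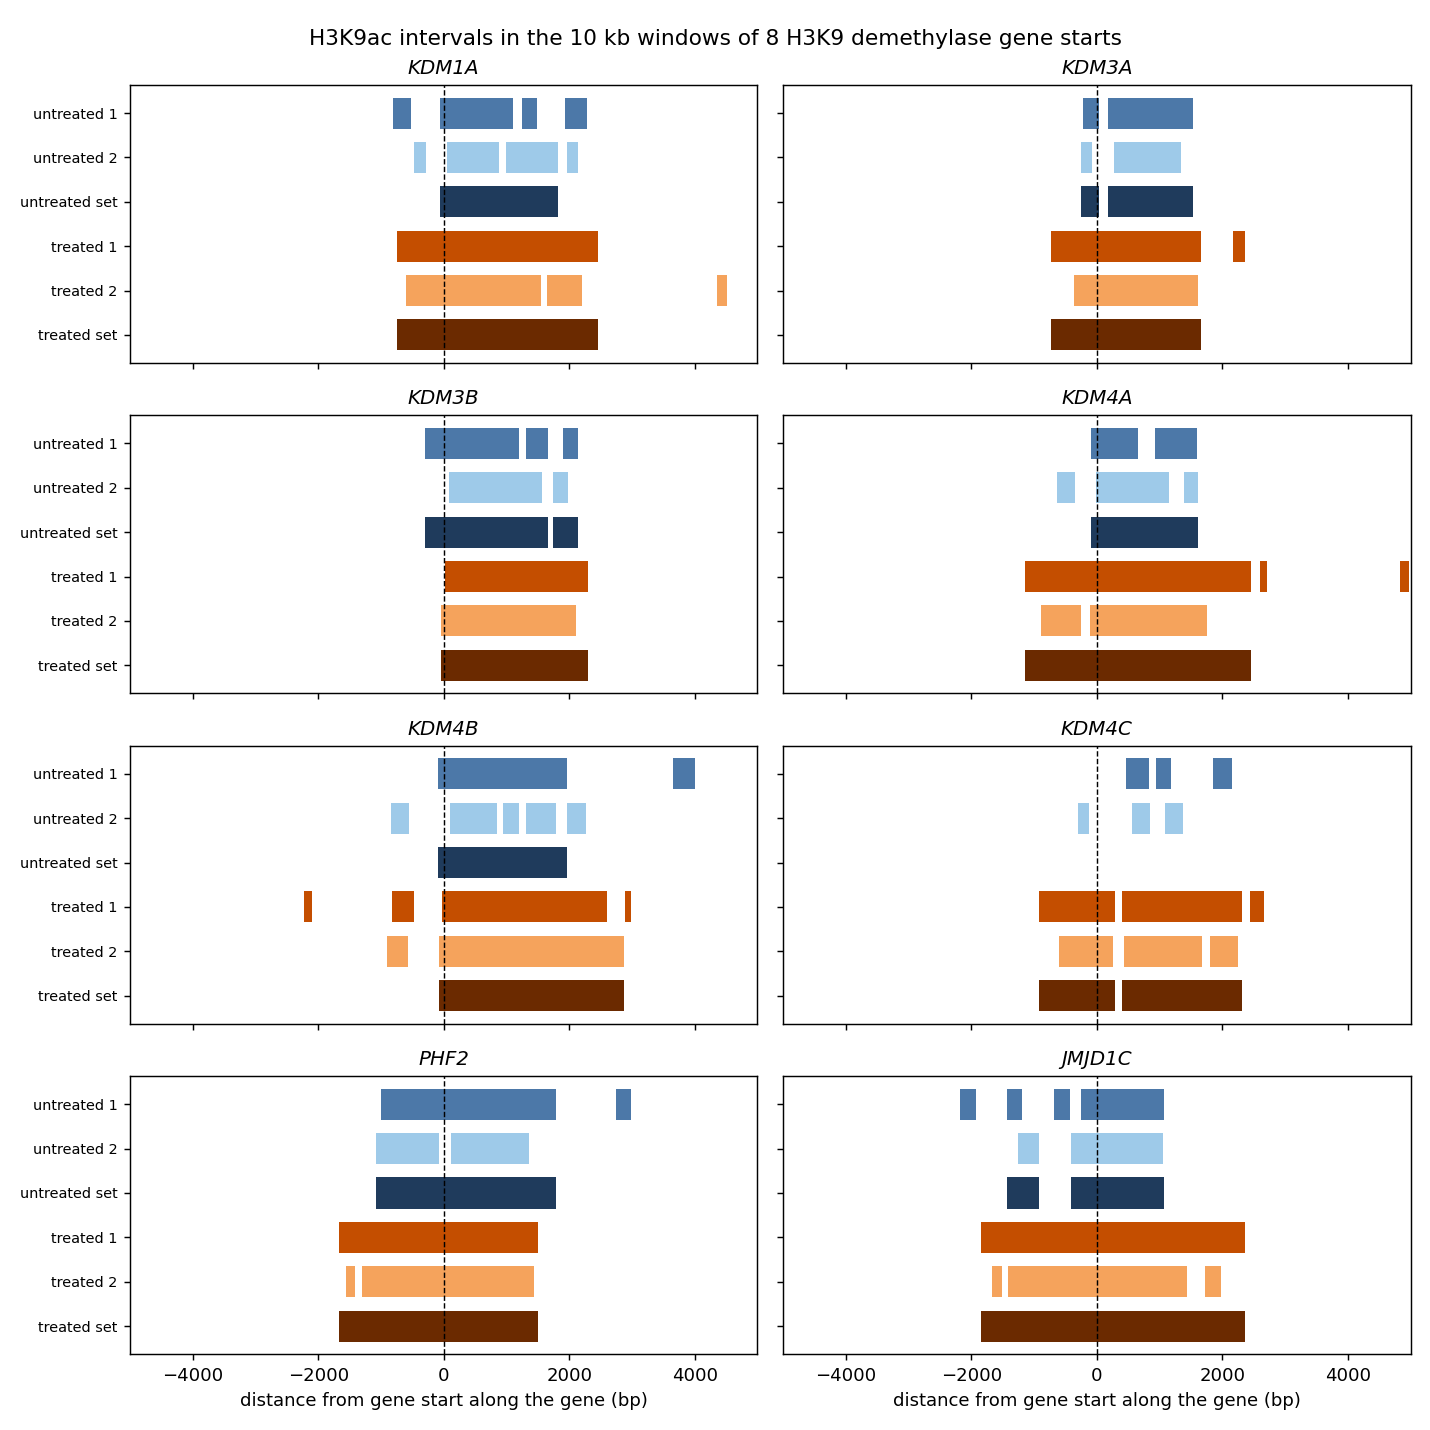
H3K9ac peaks of the 4 libraries and regions of the 2 reproducible sets (rows) around each gene start (dashed line), by distance along the gene (x axis, bp). Every untreated library row has at least 2 peaks, with long ones of 2778 bp at PHF2 and 2054 bp at KDM4B in replicate 1; treated rows have up to 4201 bp in a single peak at JMJD1C, and KDM4C has no bar in the untreated set.

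The shape of the acetylated stretch differed between conditions as well as its length. The longest single peak was longer in both treated libraries than in both untreated ones at 7 genes, PHF2 again excepted, beside 88% of the windows on shared regions and 16% of all bins with a peak. Its mean over the 8 genes was 1410 and 1041 bp untreated and 2922 and 2241 bp treated. A single peak made up all of the coverage at 4 genes in treated replicate 1 and at 2 in treated replicate 2, and at 0 genes in either untreated library. How often this holds in the background windows was not counted, so these counts have no share to be read against. The number of peaks per window was 2.75 and 2.875 untreated and 2 and 2.125 treated. Over the windows on shared regions it went the other way, with 2.50 and 2.40 untreated and 2.92 and 2.67 treated, a contrast that was not tested. More peaks in each treated library than in each untreated one were found at 0 of 8 genes, in 17.2% of the windows on shared regions and in 6.99% of all bins with a peak.

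Acetylation leaned into the gene in every library. Of all covered bases in the 8 windows, 80.4% and 78.7% lay past the start in untreated cells and 70.7% and 73.0% in treated cells. KDM3B was the most one-sided, with 85.9% to 100% past the start over the 4 libraries, and JMJD1C and PHF2 the most even, at 51.7% to 58.8% and 47.4% to 67.0%. Bases covered before the start were higher in both treated libraries at 7 genes, KDM3B excepted, with means of 379 and 361 bp untreated and 944 and 723 bp treated. Bases covered past the start were higher at 7 genes, PHF2 excepted, with means of 1560.5 and 1333.5 bp against 2283 and 1962 bp. On a single side of the centre of a window on a shared region, the same pattern held in 77.6%. That centre is the middle of a region and not a gene start, and no such share was made over all bins.

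At the start position itself the libraries differed in another way. The start base was under a peak at 7 and 2 genes in the untreated libraries and at 7 and 8 in the treated ones. Untreated replicate 2 stood apart: at KDM1A, KDM3A, KDM3B, KDM4B, KDM4C and PHF2 its peaks left the start base bare. At 500 bp past the start it covered 7 of 8 genes, as against 8 in the other 3 libraries. At 500 bp before the start 2 and 2 genes were covered untreated and 7 and 5 treated, and at 1500 bp past it 5 and 4 against 8 and 6. Coverage at single positions was not counted in the background windows, so the counts in this paragraph have no share to be read against.

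**Figure D4:**
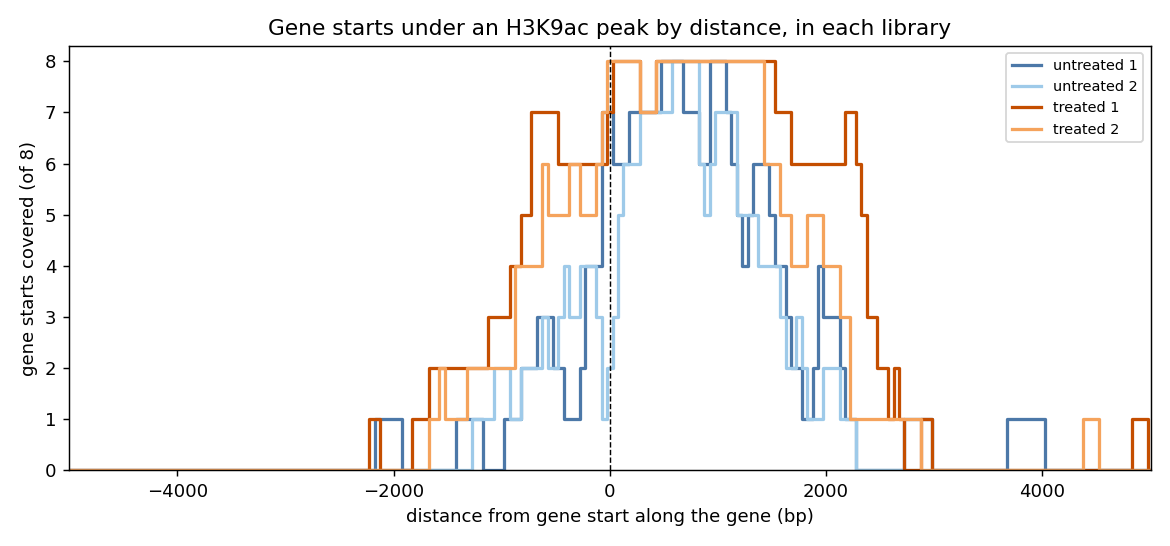
Number of gene starts, of 8, under an H3K9ac peak (y axis) at each distance along the gene (x axis, bp, in steps of 50 bp) in each library. All 4 lines peak just inside the genes, the treated lines are wider on both sides, and untreated replicate 2 dips at the start, where 2 genes were covered.

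H3K9me2 was not called at any of the 8 gene starts in any of the 4 libraries, so no window could be tested for this mark. Its covered share was 0 at every gene in every library. Of the windows on shared H3K9ac regions 97.6% likewise met no island in any library, and of all bins with an H3K9ac peak 78.2%. The lists name islands above a score limit, so H3K9me2 below that limit would not be seen.

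The nearest island was far away at most genes. It lay between 6941 and 15521 kb from KDM1A, between 4618 and 15079 kb from KDM4B, between 3151 and 3470 kb from KDM4C and between 1572 and 3270 kb from KDM4A. KDM3B had none within 512 kb in any library, although its chromosome 5 carried 33.3 to 40.2 Mb of islands. On chromosome 19, where KDM4B lies, islands took up under 1 Mb in each library, with 20 to 67 islands.

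Within 500 kb, islands were found at 3 of 8 genes in at least 1 library. Islands were found in 60.3% of 2863 bins of 1 Mb with an H3K9ac peak, and in 49.4% of 11247 windows of 1 Mb centred on shared regions. At the 3 genes limma gave an adjusted p of 0.948 for KDM3A and JMJD1C and 0.998 for PHF2. Around KDM3A islands covered 1.5% and 4.7% of the 1 Mb stretch untreated and 0.70% and 0% treated, with the nearest 141 and 134 kb away untreated and 149 and 1708 kb treated. Around JMJD1C the shares were 1.45% and 0% untreated and 3.1% and 3.32% treated. Around PHF2 they were 1.4% and 3.9% untreated and 3.15% and 1.9% treated, with the nearest island of all 8 genes 113 kb away, in untreated replicate 2. Each treated share was lower than each untreated one at KDM3A, 1 of 8 genes, and higher at JMJD1C, also 1 of 8, while the groups overlapped at PHF2. The lower pattern was found in 7.47% of the 1 Mb bins with an H3K9ac peak and 4.77% of the 1 Mb windows on shared regions, and the higher pattern in 8.17% and 7.95%. With 8 genes, single cases of each are near these shares.

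**Figure D5:**
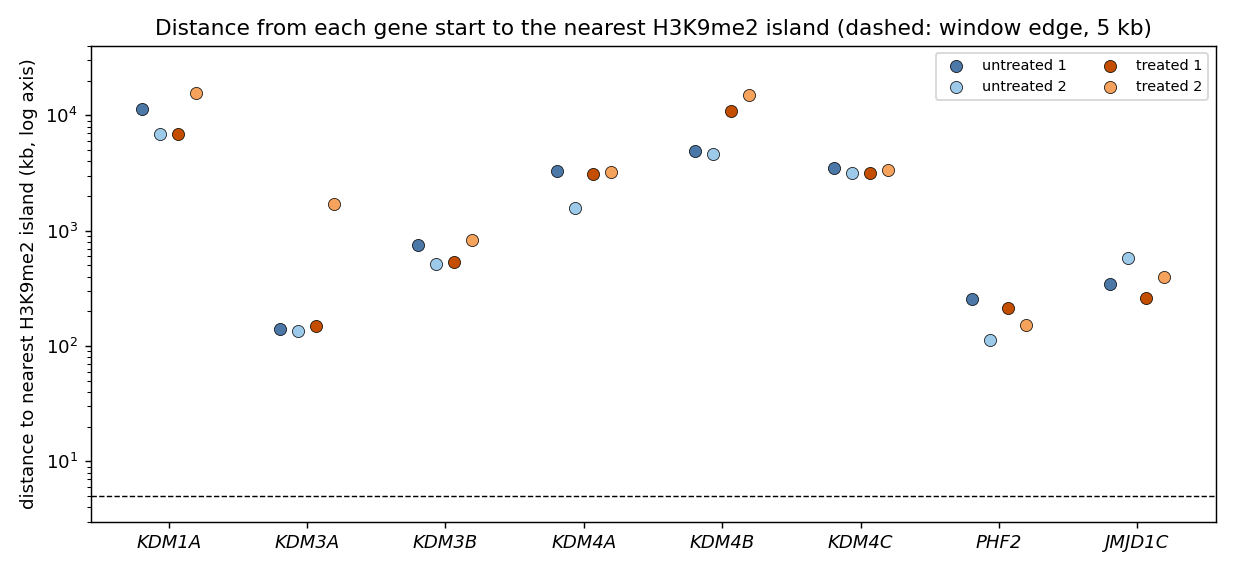
Distance from each gene start to the nearest H3K9me2 island (y axis, kb, log axis) in the 4 libraries (points). All points lie above the 5 kb edge of the window (dashed line), the lowest at 113 kb for PHF2 and the highest at 15521 kb for KDM1A.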

How the data were processed

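H3K9ac and H3K9me2 were each mapped in 2 untreated and 2 treated libraries; the 4 inputs had no lists here and were not analysed. The deposited lists give interval positions and an authors' score per interval, without headers. Tools in the submitters' processing notes are MACS2, SICER, Picard, BWA 0.7.5 and Trimmomatic 0.32, with the build hg19 and no roles. For settings and use of inputs, the sources used here say nothing. Ends in the H3K9me2 lists, which are last bases, were moved on by 1 bp. Gene starts came with the definition of the windows and strands from RefSeq.

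Covered length was the number of window bases under intervals. Scores were used for ranks and for cutting lists, both within a library, and their medians describe the lists. With R 4.3.3, limma 3.58.1 (trend on, Benjamini-Hochberg adjustment) was fitted to the arcsine square root of covered shares, over 10 kb bins of 23 chromosomes with an interval in any library plus the gene windows. Other steps used Python 3.11.15, pandas 2.3.3 and numpy 2.4.6; the code was tested on simulated data. The background windows on shared regions were centred on merged regions of both reproducible sets and overlap where regions are close. All 8 members are named; promoters were to be shown for the 2 genes with the largest and the 2 with the smallest difference. Members, lists and rules were chosen with earlier results of these data known. Both conditions number their replicates 1 and 2, and the labels do not say that a number marks a shared day or batch. The alternatives were other window widths, cut lists, scalings, filters and backgrounds, a replicate block and leaving out each library.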

Additional observations from a re-analysis of the deposited data

How the results depend on the processing

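Quantile normalization, after which 3 of the 8 genes had a positive arcsine difference, was not applied to the mean H3K9ac difference. That difference over the 8 windows, 1139 bp, kept its direction in the 9 alternatives made for it. It was 869 to 1410 bp with any 1 library left out, 939 and 1174 bp with 2 and 10 kb either side, 1218 and 1348 bp with lists cut to 59724 and 20000 peaks, and 1312.5 bp from the reproducible sets. The number of gene starts that limma called was 0 as reported, with any 1 library left out (which leaves 1 library in its condition, assumed to vary like the others), with 10 kb either side, with 20000 top peaks and after quantile normalization. It was 3 with the replicate block, 3 among windows on shared regions, 2 with 2 kb either side, 2 with bins of a mean share of at least 0.05, 2 with lists cut to the shortest and 1 with untransformed shares. These counts are to be read beside the number of all windows called higher and lower. That number was 737 and 7 of 130054 in the main fit. On the same windows it became 8982 and 80 with the replicate block, 1281 and 115 after quantile normalization and 1836 and 35 untransformed. At 2 kb it was 5245 and 37 of 177353, and at 10 kb 0 and 0 of 93340. With the filter it was 3306 and 28 of 17329, and with the shortest list 6463 and 53 of 95870. With 20000 peaks it was 0 and 0 of 25358, and on shared regions 3826 and 37 of 11387. Without treated replicate 1 or 2, or untreated replicate 1 or 2, it was 5873, 0, 2159 and 1357 higher and 0, 0, 22959 and 55784 lower; why the counts differ was not tested.

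The arcsine difference turned to -0.040 at KDM1A, -0.027 at KDM3A, -0.107 at KDM3B, -0.048 at KDM4B and -0.122 at PHF2 after quantile normalization, and to -0.0043 at KDM3B with 10 kb either side; the cause was not tested. Of the 13 alternative fits made for each of the 8 genes, 85 kept direction and side of the threshold, 13 passed it (6 at KDM4C, 5 at JMJD1C and 2 at KDM4A) and 6 turned. In the replicate block fit the adjusted p was 5.7e-08 for KDM4C, 0.00035 for JMJD1C and 0.00063 for KDM4A, the lowest over all alternatives, whose highest was 0.45, 0.85 and 0.85. The correlation of same-numbered deviations was -0.014 over all windows and -0.058 over those with a mean share of at least 0.05. It leaves out any shift common to all windows, so it cannot decide whether the numbers mark pairs. In both conditions replicate 1 had the higher mean covered length over the 8 genes. The labels name no pairing, and the main fit used none. The presence of regions in both sets at 7 genes did not change with any of 3 other rules. Islands of H3K9me2 were met at 0 gene starts up to 50 kb either side, with any 1 library left out and with the higher-scoring 50% of islands, and at 3 with 500 kb either side. The replicate block could not be fitted to H3K9me2 at the gene starts, which were at 0. Depth is unknown, so weak peaks absent from a list limit every statement of absence.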
